A study of Mus musculus with 8 samples.

Results

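The genes described here encode the proteasome of the mouse hippocampus: the subunits of its core particle and of its cap, the regulators that bind the core, and the factors that help to assemble both. They were taken as every non-control probe whose RefSeq accession leads to a symbol of Psma, Psmb, Psmc, Psmd, Psme, Psmf or Psmg followed by a digit, without Psmb8 and Psmb9. This gave 48 genes of the 20660 named genes on the array, on 59 probes. Of the 48, 46 were tested among 15089 named genes, and 2 of the 48, Psmc3ip and Psme3ip1, share the name pattern without encoding a part of the proteasome.

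RNA from the hippocampus of 3-month-old C57BL6/J mice was hybridised to 8 one-colour arrays, 4 from Ts1Cje mice and 4 from disomic wild-type controls, described as 4 pairs of littermates. Ts1Cje mice model Down syndrome with an additional copy of the end of chromosome 16, carried on a translocation that also deletes the tip of 1 chromosome 12, and 1 of their copies of Sod1 is disrupted. Every cell of the animal carries the extra segment, and the tissue was measured in bulk, so that fewer cells of a type and less RNA per cell cannot be told apart. By gene order in the reference table, Psmg1 is the 1 member inside the triplicated segment. Psmd2 lies on chromosome 16 proximal to Sod1, the 3 members on chromosome 12 (Psma3, Psma6 and Psmc1) lie proximal to the deleted end, and the other 43 are on other chromosomes.

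The proteasome degrades proteins that carry ubiquitin chains. Its core particle is a barrel of stacked rings, in which the outer alpha rings gate the entry and the inner beta rings hold the proteolytic sites, and its cap recognises ubiquitin, removes it and unfolds the substrate with a ring of ATPases. The alpha ring is built with the help of dedicated chaperones, of which Psmg1 pairs with Psmg2 and Psmg3 with Psmg4. In neurons this pathway turns over synaptic and regulatory proteins.

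Levels below are log2 signals after the array's own 75th percentile was subtracted, and differences are Ts1Cje minus wild type on that log2 scale. Adjusted p-values are from limma with Benjamini-Hochberg adjustment over 24025 features. A level belongs to its probe, so that levels of different genes are not ranked. The share of probes called well above background was 59.9% to 63.1% per array, all 8 arrays lay on 1 slide in 1 scan, and the number of arrays limits the precision. The labels number the replicates without saying which arrays form a littermate pair or that each array is 1 animal, so that p-values measure the spread between these samples, which may be technical. All 57 member probes that passed the filter were well above background on all 8 arrays, so that no member entered the test through 1 genotype alone. The alpha subunit Psma8, known from testis, and the beta subunit Psmb11, known from thymus, were not well above background on any array and were not tested.

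Psmg1, the triplicated chaperone, was higher in Ts1Cje and was the only one of the 46 tested members past an adjusted p of 0.05, a threshold passed by 0.196% of all features. Its brighter probe read 3.17, 3.07, 3.06 and 2.99 in wild-type replicates 1 to 4 and 3.67, 3.59, 3.51 and 3.52 in Ts1Cje replicates 1 to 4. Every Ts1Cje array lay above every wild-type array. The means were 3.57 ± 0.08 against 3.07 ± 0.08 (SD, n = 4 each), a 1.41-fold rise (log2 difference 0.50, SE 0.06, limma adjusted p = 0.0190). Its 95% interval ran from 0.36 to 0.64 and held 0.58, the log2 of the copy ratio of 1.5. The dimmer probe read 1.82 ± 0.05 against 1.23 ± 0.07 (SD, n = 4 each), or 1.51-fold (0.60, SE 0.06, limma adjusted p = 0.0105 over 32596 probes). The difference on the brighter probe was 0.51 among the arrays of the first slide row and 0.49 among those of the second.

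The size of the Psmg1 difference was steadier than its call. With 1 array left out in turn it ranged from 0.47 to 0.53, but the adjusted p stayed under 0.05 only without wild-type replicate 1 (limma adjusted p = 0.0473). Without any 1 of the other 7 arrays (Ts1Cje replicates 1, 2, 3 and 4, wild-type replicates 2, 3 and 4) it lay between 0.0535 and 0.102. The call was also lost with the replicate number as a block (0.50, limma adjusted p = 0.087), with the array median as centre (0.45, 0.070) and when dim probes were not filtered (0.50, 0.074). Under each of these settings 0 members were called. The calls over all features fell from 47 to 1 under the block, to 25 with the array median and to 23 without the filter. In the 8 settings with 1 array left out the calls over all features numbered 4 to 44, against the 47 with all arrays.

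The extra segment brings the promoter of Psmg1 with the gene, which is why its sequence is shown. The 250 bases before the annotated start are given 5′ to 3′ on the gene's strand, from RefSeq on GRCm38.p6 at chr16:95990961-95991210, minus strand. They are 66% G or C and hold 23 CpG dinucleotides, against a median of 6 over all promoters of that length in the table.

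Psmg1: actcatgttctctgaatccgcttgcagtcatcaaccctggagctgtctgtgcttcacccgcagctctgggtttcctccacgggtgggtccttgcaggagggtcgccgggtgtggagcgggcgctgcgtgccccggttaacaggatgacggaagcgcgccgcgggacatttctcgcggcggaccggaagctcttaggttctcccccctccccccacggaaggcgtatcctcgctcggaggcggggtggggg

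The 3 core assembly chaperones present in 2 copies did not pass the threshold. Psmg2, the direct partner of Psmg1, read 2.16, 2.05, 2.12 and 2.06 in wild-type replicates 1 to 4 and 2.18, 1.97, 2.04 and 1.87 in Ts1Cje replicates 1 to 4. These ranges overlapped, with Ts1Cje replicate 1 the highest of all 8 and Ts1Cje replicate 4 the lowest. Its difference was -0.08 (SE 0.07, limma adjusted p = 0.74), with a 95% interval of -0.25 to 0.08. Psmg3 read 1.53, 1.62, 1.45 and 1.65 in wild type and 1.59, 1.47, 1.36 and 1.50 in Ts1Cje, a difference of -0.08 (SE 0.07, limma adjusted p = 0.74). Psmg4, its partner, read 0.42, 0.28, 0.37 and 0.37 in wild type and 0.48, 0.40, 0.39 and 0.42 in Ts1Cje, a difference of 0.06 (SE 0.05, limma adjusted p = 0.73). The upper ends of all 3 intervals, 0.08 for Psmg2, 0.08 for Psmg3 and 0.17 for Psmg4, lay below the log2 copy ratio of 0.58.

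**Figure D1:**
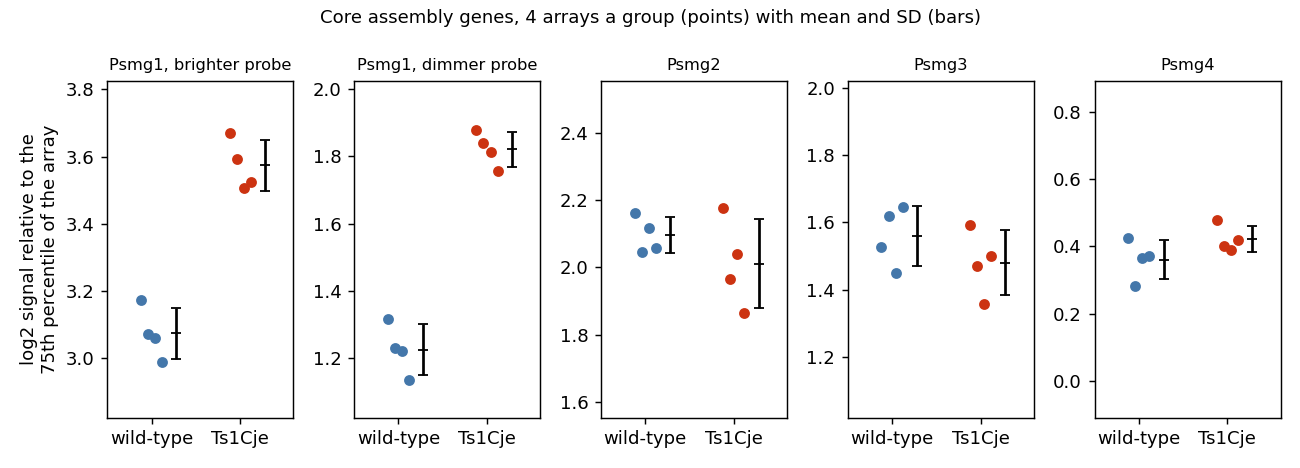
Signal of the core assembly genes on each of the 8 arrays (y axis, log2 minus the array's 75th percentile; every panel spans the same log2 range), with 4 wild-type arrays in blue, 4 Ts1Cje arrays in red, and bars for mean and SD. On both Psmg1 probes all Ts1Cje arrays lie above all wild-type arrays, whereas the arrays of Psmg2, Psmg3 and Psmg4 overlap between genotypes.

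Taken within each array, which cancels any constant scaling between arrays, the signal of Psmg1 was set against that of each of the 3 other chaperones. The log2 difference between Psmg1 and Psmg2 was 0.58 larger in Ts1Cje, that between Psmg1 and Psmg3 0.58 larger, or 1.49-fold, and that between Psmg1 and Psmg4 0.44 larger. In all 3 comparisons every Ts1Cje array lay above every wild-type array. The ratios were chosen after Psmg1 was seen to separate the genotypes and restate its values, so they are given as a description with no test.

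Among the 45 tested members with 2 copies, none passed the threshold in either direction and the differences were small. They ran from -0.33 to 0.07 with a median of -0.06, against -0.0072 over all features, and 35 of the 45 lay below 0, against 52.7% of all features. Under quantile normalization, and also without Ts1Cje replicate 3, the count below 0 was 29 of 45. With the array median as centre it was 41 of 45, where 69.0% of all features lay below 0. By signal level, 32 of all 46 tested members were among the brightest 6006 features and 11 among the next 6006. Of the features in these groups, 63.3% and 58.0% lay below 0. The part of signal level in the members' count was not tested. Of all 46 tested members, Psmg1 alone was higher and 2 (Psmb1 and Psmc3ip) were lower at an unadjusted p under 0.05, shares to be read against 4.15% and 4.57% of all features. The arrays of the genotypes did not overlap for Psmg1 on the higher side (2.42% of all features) and for Psma1, Psmb6, Psmb7 and Psmc3ip on the lower side (3.70% of all features). The intervals bounded the differences closely: all 45 upper ends lay below the log2 copy ratio, the highest being 0.34 for Psme4, and for 41 of the 45 the whole interval lay within a 1.2-fold change either way, the exceptions being Psmc6, Psmf1, Psme4 and Psmc3ip.

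**Figure D2:**
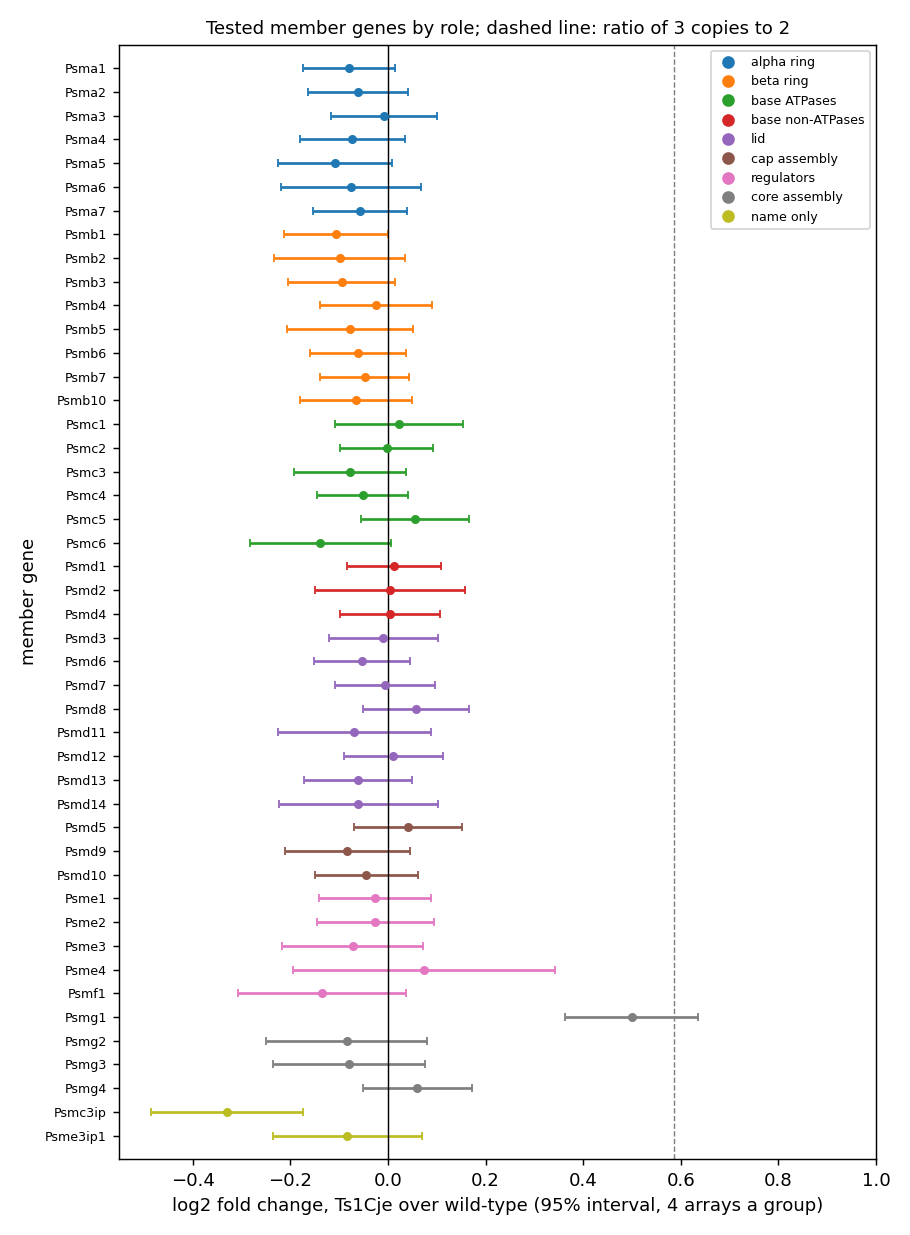
Difference between Ts1Cje and wild type for each of the 46 tested members (x axis, log2 fold change with its 95% interval from limma, 4 arrays a group; y axis, genes grouped and coloured by role). Psmg1 stands at 0.50 near the dashed line of the copy ratio, Psmc3ip at -0.33, and the other 44 between -0.14 and 0.07.

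The core particle's 15 tested genes all lay slightly below 0 (median -0.07, range -0.11 to -0.0085), and none passed the threshold. In the alpha ring, Psma5 read 4.15, 4.07, 4.11 and 4.03 in wild-type replicates 1 to 4 and 3.96, 3.95, 4.08 and 3.95 in Ts1Cje, where replicate 3 stood within the wild-type range. Its difference was -0.11 (SE 0.05, limma adjusted p = 0.60). Psma1 read 4.24, 4.21, 4.16 and 4.19 in wild type and 4.12, 4.13, 4.10 and 4.13 in Ts1Cje, so that its groups did not overlap, at a difference of -0.08 (SE 0.04, limma adjusted p = 0.62). The other alpha subunits stood at -0.06 for Psma2, -0.0085 for Psma3, -0.07 for Psma4, -0.08 for Psma6 and -0.06 for Psma7.

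In the beta ring, Psmb1 and Psmb3, which carry no proteolytic site, had the smallest p-values. Psmb1 read 3.94, 3.91, 3.93 and 3.88 in wild type and 3.89, 3.80, 3.77 and 3.77 in Ts1Cje, a difference of -0.11 (SE 0.05, limma adjusted p = 0.57), with Ts1Cje replicate 1 inside the wild-type range. Psmb3 read 5.15, 5.19, 5.07 and 5.13 in wild type and 5.11, 5.00, 5.04 and 5.02 in Ts1Cje, a difference of -0.09 (SE 0.05, limma adjusted p = 0.62), with Ts1Cje replicate 1 again inside the wild-type range. The 3 proteolytic subunits stood close together, at -0.08 for Psmb5 (chymotrypsin-like activity), -0.06 for Psmb6 (caspase-like) and -0.05 for Psmb7 (trypsin-like). Psmb10, the inducible subunit that takes the place of Psmb7 in the immunoproteasome, stood at -0.07, Psmb2 at -0.10 and Psmb4 at -0.02.

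The mean over the 15 core genes, each taken as its deviation from its own mean over the 8 arrays, was 0.06, 0.02, 0.04 and 0.02 in wild-type replicates 1 to 4 and -0.01, -0.05, -0.04 and -0.04 in Ts1Cje replicates 1 to 4. All 4 wild-type arrays lay above all 4 Ts1Cje arrays by this measure. These means restate the values of the 15 genes and were taken after those values were seen. They are therefore a description with no test. Signal level moved with the core's shift. Of the 15 core probes, 14 were among the brightest 6006 of the features tested. Over those 6006 the median difference was -0.02 with 63.3% below 0, against 0.05 and 41.2% over the dimmest 6007. Quantile normalization left 13 of the 15 below 0 with a median of -0.05, and leaving out 1 array in turn left 13 to 15. The part of signal level in the core's shift was not tested.

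The cap showed no such common sign, with 10 of its 17 tested base and lid genes below 0 and a median of -0.0056, a count that was 7 under quantile normalization and 15 with the array median as centre. By the same cut, 15 of its 17 probes were among the brightest 6006. That cut does not compare the levels of core and cap, and the part of signal level was not tested here either. The difference between core and cap was not tested. Among the 6 ATPases that unfold substrates, Psmc6 read 2.80, 2.76, 2.96 and 2.82 in wild type and 2.72, 2.64, 2.79 and 2.63 in Ts1Cje, a difference of -0.14 (SE 0.06, limma adjusted p = 0.58), with Ts1Cje replicate 3 inside the wild-type range. Psmc3 read 6.70, 6.61, 6.62 and 6.60 in wild type and 6.63, 6.49, 6.53 and 6.58 in Ts1Cje, a difference of -0.08 (SE 0.05, limma adjusted p = 0.67). Psmc1 stood at 0.02, Psmc2 at -0.0029, Psmc4 at -0.05 and Psmc5 at 0.06.

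**Figure D3:**
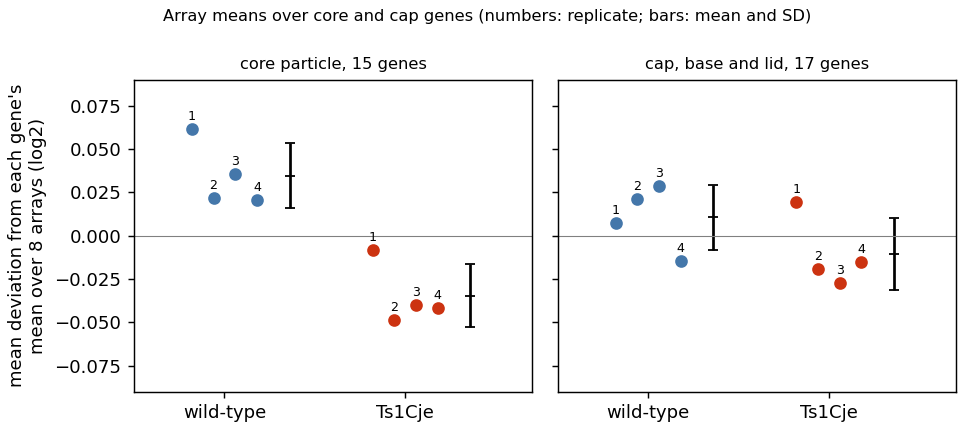
Mean deviation of each array over the 15 core genes (left) and the 17 cap genes (right), each gene taken relative to its own mean over 8 arrays (y axis, log2); blue points are wild-type and red points Ts1Cje arrays, numbered by replicate, with bars for mean and SD. For the core the wild-type arrays lie at 0.02 to 0.06 and the Ts1Cje arrays at -0.05 to -0.01, whereas for the cap the genotypes overlap. The means restate the values of the genes and were not tested.

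The scaffold subunits Psmd1 and Psmd2 and the ubiquitin receptor Psmd4, the non-ATPase part of the base, were the members nearest to no change as a group. Psmd1 read 4.76, 4.80, 4.78 and 4.71 in wild type and 4.79, 4.76, 4.77 and 4.79 in Ts1Cje, a difference of 0.01 (SE 0.04, limma adjusted p = 0.94). Psmd2, on chromosome 16 outside the triplicated segment, stood at 0.0046 (95% interval -0.15 to 0.16) and Psmd4 at 0.0051. In the lid, Psmd13 read 3.56, 3.49, 3.56 and 3.43 in wild type and 3.47, 3.43, 3.49 and 3.42 in Ts1Cje, a difference of -0.06 (SE 0.05, limma adjusted p = 0.72). Psmd6 read 3.30, 3.38, 3.32 and 3.30 in wild type and 3.26, 3.30, 3.28 and 3.24 in Ts1Cje, a difference of -0.05 (SE 0.04, limma adjusted p = 0.73). Psmd14, the deubiquitinase of the lid, stood at -0.06, and the structural subunits at -0.0093 for Psmd3, -0.0056 for Psmd7, 0.06 for Psmd8, -0.07 for Psmd11 and 0.01 for Psmd12.

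The chaperones of the cap's base did not pass either. Psmd9 read 0.50, 0.46, 0.59 and 0.53 in wild type and 0.52, 0.34, 0.48 and 0.41 in Ts1Cje, a difference of -0.08 (SE 0.06, limma adjusted p = 0.68), with overlapping groups. Psmd5 stood at 0.04 and Psmd10, also known as gankyrin, at -0.04.

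Of the regulators that bind the core in place of the cap, none passed. Psmf1, an inhibitor of the core in vitro, read -0.10, -0.23, -0.03 and -0.24 in wild type and -0.18, -0.19, -0.35 and -0.40 in Ts1Cje. Its arrays overlapped, and the difference was -0.14 (SE 0.07, limma adjusted p = 0.64), -0.03 in the first slide row and -0.24 in the second. The interferon-inducible activator subunits Psme1 and Psme2 both stood at -0.03, and the nuclear activator Psme3 at -0.07. Psme4, the activator linked to acetylated histones, stood at 0.07 with the widest interval of the members, -0.19 to 0.34, and its difference was -0.14 in the first slide row and 0.28 in the second.

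The lowest value belonged to a gene that matches by name only. Psmc3ip encodes a partner of the meiotic recombinases and is named for its binding to the product of Psmc3. It read -1.64, -1.60, -1.67 and -1.78 in wild-type replicates 1 to 4 and -1.88, -1.94, -2.10 and -2.08 in Ts1Cje. Every Ts1Cje array lay below every wild-type array, at 0.80-fold (-0.33, SE 0.07), but the difference did not pass over all features (limma adjusted p = 0.18). With normexp background correction the difference was smaller, at -0.19 (limma adjusted p = 0.53). Under the other alternative settings it ran from -0.38 to -0.30. Psme3ip1 stood at -0.08 (SE 0.07).

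Of the tested members, 11 were read by 2 probes that passed the filter, which gives a check within the array. The probes shared a sign for 9 of the 11. Those of Psmc1 (0.02 and -0.03) and Psmd12 (0.01 and -0.11) did not, and the gap of 0.12 for Psmd12 was the largest of the 11. For Psme4, whose brighter probe gave 0.07, the other probe gave 0.0023, and for Psme2 the dimmer probe gave -0.11.

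**Figure D4:**
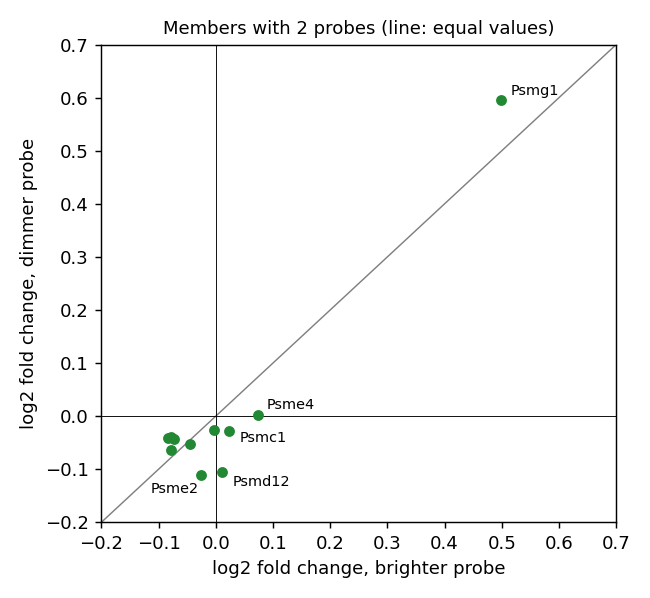
Log2 fold change between Ts1Cje and wild type on the brighter (x axis) and the dimmer (y axis) probe of the 11 members with 2 probes above background; the diagonal marks equal values. Psmg1 lies apart at 0.50 and 0.60, and the other 10 genes lie between -0.11 and 0.07 on both probes.

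Further genes of the ubiquitin-proteasome pathway were listed beside the members: other proteasome parts, factors bound to the proteasome, ubiquitin genes and activating enzymes, shuttle factors with the segregase Vcp, and the Nfe2l1 pathway that controls proteasome genes. Of the 32 tested, 0 passed in either direction by limma, where 0.196% of all features did. Of the same 32, 0 had an unadjusted p under 0.05, against 4.15% of all features higher and 4.57% lower. Their median was -0.0086, with 20 of 32 below 0, against 52.7% of all features. Pomp, the chaperone that acts after Psmg1 in core assembly, read 4.78, 4.69, 4.71 and 4.70 in wild type and 4.62, 4.68, 4.61 and 4.61 in Ts1Cje. Its groups did not overlap, at -0.09 (SE 0.04, limma adjusted p = 0.61). Those of Ube3c (-0.09) did not overlap either, which makes 2 of 32 on the lower side, against 3.70% of all features. Nfe2l1, the transcription factor that raises proteasome genes when proteasome activity is low, read -0.46, -0.58, -0.57 and -0.61 in wild type and -0.59, -0.70, -0.63 and -0.75 in Ts1Cje, with overlapping groups and a difference of -0.11 (SE 0.06, limma adjusted p = 0.61). Nfe2l2, its relative in the antioxidant response, read 0.94, 0.76, 0.66 and 0.59 in wild type and 1.04, 1.12, 0.79 and 0.87 in Ts1Cje, a difference of 0.22 (SE 0.10, limma adjusted p = 0.59). Wild-type replicate 1 was the array that overlapped the Ts1Cje range. Ngly1, which processes the Nfe2l1 protein, read -2.39, -2.51, -2.42 and -2.58 in wild type and -2.34, -2.46, -2.21 and -2.24 in Ts1Cje, a difference of 0.16 (SE 0.07, limma adjusted p = 0.58). Its Ts1Cje replicate 2 stood inside the wild-type range.

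The immunoproteasome subunits Psmb8 and Psmb9, left out of the members, stood above 0 but with a wide spread. Psmb8 read -0.92, -1.25, -1.47 and -1.44 in wild type and -0.79, -0.97, -1.19 and -0.91 in Ts1Cje, a difference of 0.30 (SE 0.14, limma adjusted p = 0.58). Psmb9 read -0.69, -1.02, -1.20 and -1.21 in wild type and -0.72, -0.65, -1.08 and -0.72 in Ts1Cje, a difference of 0.24 (SE 0.14, limma adjusted p = 0.65). Wild-type replicate 1 stood within the Ts1Cje range in both genes, as did wild-type replicate 2 for Psmb9, and the remaining inducible subunit, Psmb10, stood at -0.07.

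Because Nfe2l1 acts through antioxidant response elements, their core letters, TGACNNNGC on either strand, were searched in the 250 bases before each start. Of 40 members with a promoter in the table, 5 (12.5%) held them, against 11.5% of all 27025 genes with a promoter there, and Psmg1 held none. The CCAAT box, the letters CCAAT on either strand, was held by 15 of the 40 (37.5%) against 37.5% of all genes. The matches nearest to the start were in the proteolytic subunits Psmb5 and Psmb6 and in Psmd9, and are shown with up to 10 bases on each side, with the matched letters in capitals, as the 3 matches within 47 bases of the start. They are from RefSeq on GRCm38.p6, at chr14:54618024-54618052 on the minus strand for Psmb5, chr11:70525338-70525356 on the plus strand for Psmb6 and chr5:123228149-123228177 on the plus strand for Psmd9.

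Psmb5: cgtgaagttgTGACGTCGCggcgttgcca
Psmb6: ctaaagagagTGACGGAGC
Psmd9: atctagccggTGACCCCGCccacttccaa

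The 3 genes stood at -0.08 for Psmb5, -0.06 for Psmb6 and -0.08 for Psmd9, within the range of the other members. The remaining matches were in Psmc6 (-0.14), 227 bases before the start, and Psmd12 (0.01), 247 bases before it.

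Markers of the cell types that a hippocampal dissection can hold were read on the same arrays. Of 44 listed, 43 were tested and 25 of these lay below 0, against 52.7% of all features. By limma 0 of the 43 passed, where 0.196% of all features did. Markers of pyramidal and granule neurons were present on all arrays, with a summed linear signal, in units of the array's 75th percentile, of 91.5 to 98.5 in wild type and 93.9 to 101 in Ts1Cje. Of these markers 4 of 8 were below 0 (median -0.02). Those of oligodendrocytes summed to 204 to 212 in wild type and 154 to 224 in Ts1Cje, with 3 of 5 below 0 (median -0.05). Those of microglia summed to 45.8 to 50.8 and 47.9 to 51.9, also with 3 of 5 below 0 (median -0.05). All 5 markers of choroid plexus and ependyma were below 0 (median -0.21), with sums of 3.64 to 6.43 and 3.63 to 4.75. The 3 tested markers of blood were all above 0 (median 0.32), with sums of 0.591 to 1.41 and 0.491 to 1.52, and Alas2, the remaining blood marker, was not tested. Of the astrocyte markers 4 of 5 were below 0 (median -0.07), with sums of 52.4 to 56.6 and 52.1 to 56.5. Those of oligodendrocyte precursors had a median of -0.10 (14.3 to 16.7 and 11.5 to 16.5). Interneuron markers had a median of 0.07 (67.8 to 79.7 and 72.1 to 75.7), and endothelial markers 0.02 (16.7 to 20.6 and 17.7 to 21.9). The part of the marker differences in the values of the members was not tested.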

How the data were processed

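Cy3-labelled cRNA from 8 hippocampal RNA samples was measured on Agilent arrays. The deposited files hold a linear intensity for every spot, background-corrected with Feature Extraction 10.10.1.1 and not normalized between arrays, per the file headers, which also name mm9 as the build of the probe design. Here control and outlier-flagged spots were left out, log2 signals of spots with 1 probe were averaged and scaled to the array's 75th percentile. A probe was kept if either genotype had it well above background on its 4 arrays. Accessions were named through a RefSeq table of GRCm38.p6, which served for names and gene order, and the brightest kept probe stood for a gene. The test was limma (3.58.1, R 4.3.3) over all features without a block, at a Benjamini-Hochberg adjusted p under 0.05. The fit was tested on simulated data. Figures were drawn with matplotlib 3.10.9.

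Every member was named. Shown in full were Psmg1, members past the threshold, and in each role the smallest p, or the smallest 2 where the role had 6 or more tested genes. Psmg2 to Psmg4 were added, and of the pathway list the 3 smallest p with Psmb8, Psmb9, Pomp and Nfe2l1. Alternatives were normexp (offset 50) on median signals, quantile normalization, the array median, other filters, other probe rules, array weights, another variance prior, slide row or replicate number as a block, and each array left out. Members and lists were chosen with earlier results of these data known. The ratios of Psmg1 to the other chaperones, the core against cap description, the grouping by signal level and the promoter letters were added after values were seen.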

Additional observations from a re-analysis of the deposited data

Results flagged for a closer look

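In 7 of 104 sets of 4 arrays (46 members and 6 pathway genes in each genotype), the gap from 1 array to its nearest neighbour exceeded Dixon's limit, where chance gives about 5.2. Ts1Cje replicate 3 was the array in 4 of the 7. It was high for Psma5 (4.08 against 3.95 to 3.96) and low for Psmb4 (5.84 against 5.95 to 5.96), Psmd7 (3.03 against 3.08) and Psmb9 (-1.08 against -0.72 to -0.65). Wild-type replicate 1 was high for Psmb7 (3.67 against 3.62 to 3.63) and Psme3 (0.86 against 0.65 to 0.67), and wild-type replicate 3 was low for Psmd2 (3.88 against 4.08 to 4.10).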

How the results depend on the processing

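Psmg1 stayed higher in all 19 alternatives (log2 difference 0.45 to 0.60) and past the threshold in 9. Its call was lost with the array median as centre (0.45, limma adjusted p = 0.070), with no filter on dim probes (0.50, 0.074) and with the replicate block (0.50, 0.087), and when 1 array was left out the value was 0.47 to 0.53. The number of members called, 1, was 0 with the array median, with no filter and with the replicate block, and 0 to 1 with 1 array left out. Calls over all features fell too, from 47 to 25 with the array median, 23 with no filter and 1 with the replicate block. With 1 array left out they numbered 4 to 44. Members with an unadjusted p under 0.05 numbered 3, but 6 with the array median, 5 with array weights, 7 with the trended and robust prior, and 2 to 4 with 1 array left out. Members whose genotypes did not overlap numbered 5, but 15 with the array median. With 1 array left out, where fewer arrays are compared, they numbered 6 to 11. With the array median as centre all features moved down too, with 69.0% below 0 and a median of -0.058, against 52.7% and -0.0072 in the main fit. The shares of all features for either count are not given under these settings, so the changes are not read as particular to the members. The members' median of -0.06 was -0.037 with quantile normalization and -0.11 with the array median. Of 378 values of the other genes shown in full, 376 kept their sign and side of the threshold. Those that turned were Psmd1 with the array median (-0.037) and without wild-type replicate 4, its range with 1 array left out being -0.0054 to 0.026. No pathway gene passed in any of these settings. The cause of these changes was not tested. Same-numbered arrays deviated from their group means with correlations of 0.24, 0.19, 0.11 and 0.05, all above 0. Wild-type replicates 1 and 2 each correlated best with their own number, and wild-type replicate 4 with Ts1Cje replicate 3 (0.14). Wild-type replicate 3 correlated almost equally with its own number (0.106) and with Ts1Cje replicate 1 (0.104). Not every pair exceeded 0.1 and no label ties the numbers to the littermate pairs. The numbers were therefore not taken as pairs, although wild-type replicates 1 and 2 hint at it. Same-numbered arrays also lay side by side in the same slide row, so that pairing and position on the slide cannot be told apart. Calls over all features fell from 47 to 1 with the replicate block.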
